A study of Rattus norvegicus with 144 samples.

Results

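Repeated nicotine was compared with saline in the prefrontal cortex (PFC) of F344 rats. The comparison used 24 of the 144 libraries of the series, which were the 12 Nicotine (F344_Nic) and the 12 Saline (F344_Sal) columns of the F344 PFC table. From this table, the 39085 assembled transcripts that matched an Ensembl transcript exactly (class code = of the comparison with the annotation) were taken, and they belonged to 29275 gene ids. The F344 rats were adult males of an inbred strain without a transgene. The F344_Nic rats received 1 ml/kg of a 0.25 mg/ml nicotine solution under the skin in 2 injections per day for 17 days, and the F344_Sal rats received saline in the same way. All of them came from an earlier behavioral study that was published separately. The series also holds the dorsal hippocampus (HIP) and dorsal striatum (STR), and HIV-1Tg rats, which carry an HIV-1 genome that lacks gag and pol and is driven by the viral promoter, on the F344 background, with 12 rats in each group.

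Nicotine binds to nicotinic acetylcholine receptors, which are cation channels opened by acetylcholine. In the PFC, a region needed for attention and working memory, these receptors sit on pyramidal neurons, on interneurons, and on the endings of incoming axons that release glutamate, dopamine, and other transmitters. Repeated exposure is known to desensitize the receptors and to raise their number at the cell surface. The tables list Ensembl identifiers without gene names, and the reference used here pairs none of these identifiers with a symbol. Receptor subunits, genes of their downstream pathways, and markers of neurons, glia, or neighboring regions were therefore not analysed here, and the label of the tissue was not checked against markers. The transcripts are described by their length, abundance, and number per gene id instead.

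The values are FPKM, that is, fragments per kilobase of transcript, scaled to the mapped fragments of the library, as the authors obtained them with Cufflinks. Cufflinks assembles transcripts in each library and divides the fragments of a gene among its isoforms by a model, so the FPKM of an isoform is an estimate and the assembled length can differ between rats. The numbers of reads were not given in the sources used here. As a relative depth, the median of coverage divided by FPKM was taken in each library, and it ranged from 2.11 to 3.50 in the F344_Sal libraries. It was 2.27 to 2.58 in 10 of the F344_Nic libraries, and the remaining pair, rats 4 and 8, had 3.54 and 3.37. Of the transcripts that entered the test, 1430 to 1749 were listed at an FPKM of 0.01 or less in a library. No 2 libraries were duplicates, since at most 0.0172% of their values above 0.01 were identical.

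F344_Nic rats 4 and 8 stood apart from the other 10 F344_Nic rats and lay on the side of the F344_Sal rats. The first principal component of the 24 libraries held 7.44% of the variance over 13581 transcripts. It placed the other 10 F344_Nic rats at -62.1 to -41.5 and the F344_Sal rats at 21.9 to 47.6. Rat 8 lay at 44.4, inside the F344_Sal range, and rat 4 at 53.0, beyond its upper end. The labels put both rats in the nicotine group, and they were kept there. Whether these 2 labels are right was not tested, and each value over all 12 F344_Nic rats depends on them. The counts of calls and their shares by length are therefore also given without these 2 rats and for these 2 rats alone against the 12 F344_Sal rats, and values for which nothing is said are over all 24 rats. The other 10 rats are a set described after the values were seen and not a group of the study.

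**Figure D1:**
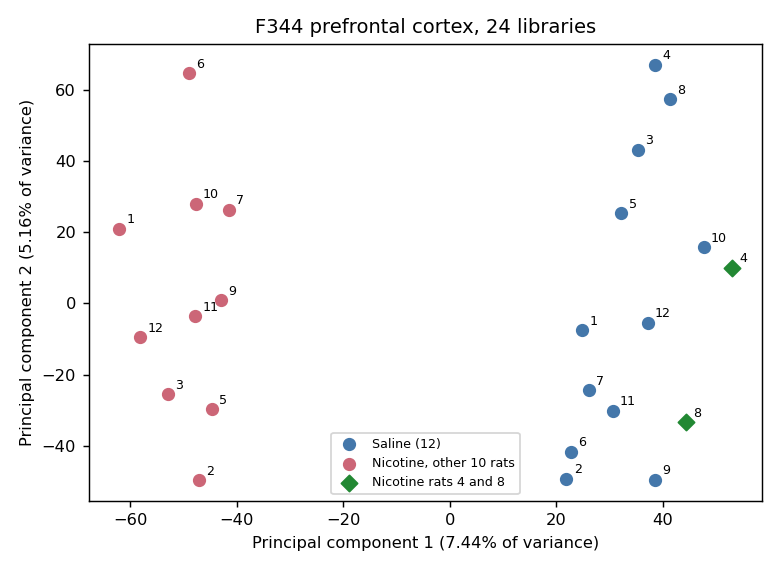
Scores of the 24 F344 PFC libraries on the first (x axis) and second (y axis) principal components of log2(FPKM + 0.1), with the rat number beside each point. The other 10 F344_Nic rats lie at -62.1 to -41.5 on the first component, whereas F344_Nic rats 4 and 8 lie with the 12 F344_Sal rats at 21.9 and above.

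In the comparison of all 24 rats, more transcripts were lower than higher in the F344_Nic rats. Tested were the transcripts listed above 0.01 FPKM in 6 or more of the 12 rats of each group. A call needed a fold change over 1.2 on the log2(FPKM + 0.1) scale and p under 0.05 before adjustment, so that some calls arise without any difference between the groups. Of 14583 transcripts tested with limma, 1525 were called, which is 10.5% of those tested. Of these, 411 (2.82%) were higher and 1114 (7.64%) were lower in the F344_Nic rats. With limma's p-values adjusted by the Benjamini-Hochberg method, over every transcript tested, 754 remained (5.17%), with 86 higher and 668 lower and a smallest adjusted p of 3.44e-11. The median difference over all transcripts tested was -0.02 on the log2 scale. The samples were punches of tissue, in which fewer cells of a type and less RNA per cell cannot be told apart. When the libraries were scaled to equal medians, 625 transcripts were higher and 920 were lower. The share of lower transcripts among those called was then 59.5%, whereas it was 73.0% without scaling, so the balance of directions depended partly on the scaling.

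The counts were similar without rats 4 and 8, and these 2 rats alone gave far fewer calls. Without them, 1521 of 13800 transcripts (11%) were called, 443 higher (3.21%) and 1078 lower (7.81%), and 824 (5.97%) remained after adjustment. The calls shared with the comparison of all rats numbered 1299, or 85.2% of the calls with all rats and 85.4% of those without the pair, and all 1299 had the same direction. For rats 4 and 8 against the F344_Sal rats, 240 of 12070 transcripts (1.99%) were called, 69 higher (0.572%) and 171 lower (1.42%). After limma's p-values were adjusted, 0 of these remained, and the smallest adjusted p was 0.169. The calls in these 2 rats included 54 of the 1525 calls with all rats, 53 of them in the same direction. A set of 2 rats gives a less precise difference than a set of 10, and this bears on the lower number of calls. The filter differed as well. A transcript entered the comparison of rats 4 and 8 only when it was above 0.01 FPKM in both of them. Without these rats it had to be above 0.01 in 6 or more of the other 10.

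Rats 4 and 8 were near F344_Sal in most of the transcripts that passed the adjusted threshold. Among the 668 lower ones, the median difference from F344_Sal was -1.58 on the log2 scale in the other 10 rats and -0.09 in rats 4 and 8. Among the 86 higher ones, the corresponding medians were 1.08 and -0.0046. These transcripts were chosen with all 24 rats, so the size of the difference in the other 10 is partly set by that choice. Rats 4 and 8 both lay within the range of the 12 F344_Sal rats for 514 of the 668 lower transcripts (76.9%) and for 67 of the 86 higher ones (77.9%), and this share was 78.6% over all transcripts tested. They both lay within the range of the other 10 F344_Nic rats for 55 of the lower (8.23%) and 11 of the higher ones (12.8%), as compared with 67.0% of all transcripts tested. In the other 10 rats, the difference from F344_Sal was over 2-fold for 510 of the lower transcripts, over 4-fold for 230, and over 10-fold for 58. Of the higher transcripts, 48 differed by over 2-fold, 14 by over 4-fold, and 1 by over 10-fold.

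**Figure D2:**
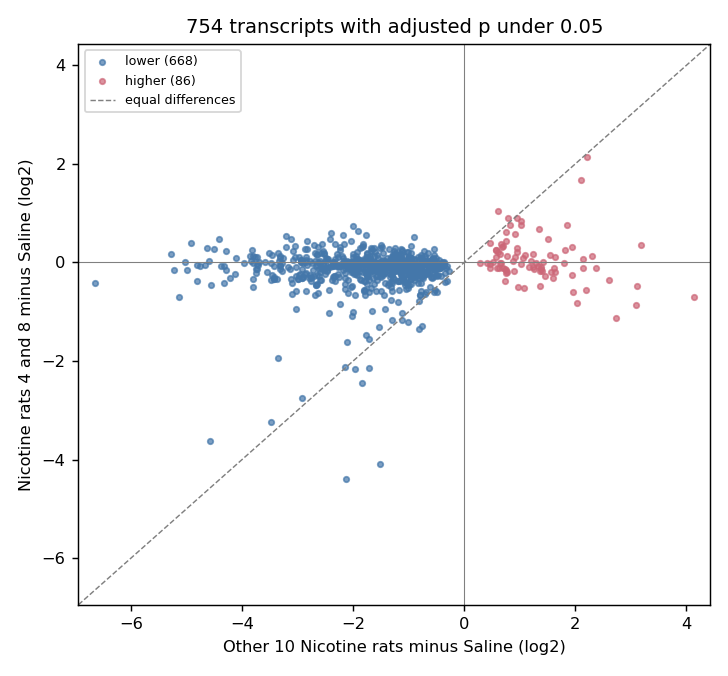
Mean difference from F344_Sal on the log2(FPKM + 0.1) scale in the other 10 F344_Nic rats (x axis) and in F344_Nic rats 4 and 8 (y axis), 1 point for each of the 754 transcripts with an adjusted p under 0.05. Most points lie along the horizontal line at 0, with medians of -1.58 on the x axis and -0.09 on the y axis for the 668 lower transcripts.

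The levels of 4 transcripts show this by rat. They were the 2 with the smallest p among the higher and the 2 among the lower transcripts, of those called with and without rats 4 and 8 at a mean FPKM of 1 or more. ENSRNOT00000027484, of gene id ENSRNOG00000020292, was the only transcript of its gene id and 656 bases long. Its FPKM was 203.7 to 255.1 in the other 10 F344_Nic rats, with a median of 222.4. In rats 4 and 8 it was 109.6 and 122.8, and in the F344_Sal rats it was 84.7, 112.6, and 130.7 at the lowest, the median, and the highest. The other 10 rats thus lay above every F344_Sal rat, and rats 4 and 8 lay inside the F344_Sal range. The mean was 208.2 ± 45.0 (SD, n = 12) in F344_Nic and 109.4 ± 14.3 (SD, n = 12) in F344_Sal, a log2 difference of 0.90 with an SE of 0.0996 (limma, adjusted p = 1.86e-09).

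ENSRNOT00000005579, of gene id ENSRNOG00000004203 and 509 bases long, was also alone in its gene id and had a larger difference at a lower level. Its FPKM was 25.2, 30.3, and 33.5 at the lowest, the median, and the highest in the other 10 F344_Nic rats. It was 3.17 in rat 4 and 4.51 in rat 8, and 3.65, 4.60, and 10.9 in the F344_Sal rats. The other 10 rats did not overlap with F344_Sal, whereas rat 4 lay below all F344_Sal rats and rat 8 inside their range. The log2 difference was 2.12 with an SE of 0.285 (limma, adjusted p = 1.57e-07), and for rats 4 and 8 alone it was -0.35 with an SE of 0.353.

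ENSRNOT00000003411, of gene id ENSRNOG00000002526 and 720 bases long, was lower in all F344_Nic rats than in any F344_Sal rat. The other 10 F344_Nic rats had an FPKM of 17.6 to 19.8 with a median of 18.6, and this was the narrowest range of the 4 transcripts relative to its level. Rat 4 had 40.7 and rat 8 had 34.7, between the other 10 and the F344_Sal rats, which had 42.0, 54.1, and 67.5. The log2 difference was -1.42 with an SE of 0.122 with all rats (limma, adjusted p = 3.44e-11) and -1.59 with an SE of 0.0981 without rats 4 and 8. For rats 4 and 8 alone it was -0.57 with an SE of 0.192 (limma, unadjusted p = 0.005041).

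ENSRNOT00000047628, 438 bases long, was 1 of 3 transcripts of gene id ENSRNOG00000033757. It was listed at 0 to 0.223 FPKM in the other 10 F344_Nic rats, with a median of 0.036. Rat 4 had 10.2 and rat 8 had 11.1, and the F344_Sal rats had 11.2, 13.9, and 18.1. Rats 4 and 8 lay just under the lowest F344_Sal rat and far above the other 10. The log2 difference of -5.61 with an SE of 0.505 (limma, adjusted p = 9.87e-11) rests on the 0.1 added to values near 0 and has no fixed lower limit.

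**Figure D3:**
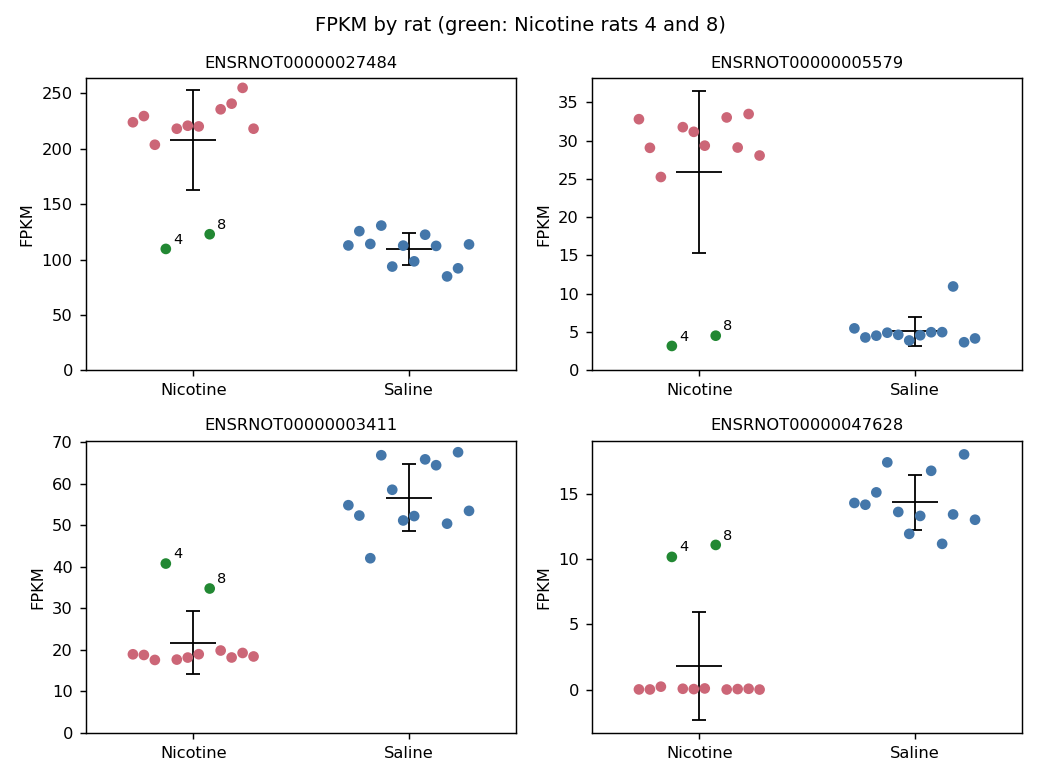
FPKM (y axes, linear from 0 or just below) of 4 transcripts in each of the 12 F344_Nic and 12 F344_Sal rats, with the mean and SD of each group of 12 as black bars. F344_Nic rats 4 and 8 (green) had 3.17 and 4.51 FPKM of ENSRNOT00000005579, near the F344_Sal median of 4.60, whereas the other 10 (red) had 25.2 to 33.5.

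Short transcripts changed most often. Of the 1970 transcripts under 700 bases that were tested, 604 (30.7%) were called, 102 higher (5.18%) and 502 lower (25.5%). Of the 5196 transcripts of 700 to under 2000 bases, 620 (11.9%) were called, 165 higher and 455 lower (8.76%). The share was 4.15% (242 of 5828) at 2000 to under 5000 bases and 3.71% (59 of 1589) at 5000 bases and over. The lower transcripts contributed most to this order, since their share ran from 25.5% in the shortest to 1.70% in the longest class. The share of higher transcripts also fell, with 5.18%, 3.18%, 1.92%, and 2.01% from the shortest to the longest class. With median scaling it was 5.94%, 4.48%, 3.79%, and 3.40%. In the shorter classes the lower calls outnumbered the higher ones also with median scaling, with 446 lower and 117 higher under 700 bases. At 2000 to under 5000 bases the balance depended on the scaling, with 130 lower and 112 higher as deposited and 94 lower and 221 higher with scaling. At 5000 bases and over the higher calls were more in both, with 32 higher and 27 lower as deposited and 54 and 19 with scaling. Without the filter on low values the contrast was smaller, with 8.11% of 10693 transcripts called under 700 bases, 6.40% of 13772 at 700 to under 2000 bases, 4.00% of 11603 at 2000 to under 5000 bases, and 3.30% of 2818 at 5000 bases and over. In the other regions of F344 rats, 3.9% to 5.6% were called over all lengths, and 1 transcript in each remained after limma's p-values were adjusted. At 2000 to under 5000 bases, 4.93% were called in the HIP and 3.52% in the STR, and the 4.15% in the PFC lay between these. At 5000 bases and over the shares were 6.67% and 4.14%, and the 3.71% in the PFC was below both.

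Within the short transcripts, the share called was highest at 300 to under 500 bases. There, 310 of 875 transcripts (35.4%) were called, 254 of them lower. The share was 24.1% (58 of 241) under 300 bases, 27.6% (236 of 854) at 500 to under 700 bases, and 22.5% (270 of 1201) at 700 to under 1000 bases. It fell to 10.6% at 1000 to under 1500 bases and to 6.85% at 1500 to under 2000 bases. The median length was 638.5 bases in the 668 lower and 656 bases in the 86 higher transcripts past the adjusted threshold, and 2038.5 bases in all transcripts tested. After adjustment, 21.0% of the transcripts under 700 bases remained, and 0.252% (4 of 1589) of those of 5000 bases and over.

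With the filter on low values, the share called was similar in the classes of abundance up to a mean FPKM of 100. It was 10.4% (432 of 4154) at a mean FPKM under 1 over the 24 rats, 10.6% (686 of 6466) at 1 to under 10, and 10.1% (373 of 3686) at 10 to under 100. At a mean FPKM of 100 and over it was 12.3%, or 34 of 277. Without rats 4 and 8 the shares were 10.7%, 10.9%, 11.1%, and 15.3% (42 of 274), in the same order. The shares of lower transcripts in these classes were 6.91%, 8.07%, 7.51%, and 10.1%. The low-abundance class depended on the pseudocount, because with a pseudocount of 1 its share was 4.57%. Among the transcripts under 700 bases, 19.8% were called at a mean FPKM under 1, 40.6% at 1 to under 10, 34.0% at 10 to under 100, and 27.5% at 100 and over. A transcript with no rat at or under 0.01 was called more often (13.3% of 6260) than one with 5 and more such rats (6.09% of 3824). Of the 1525 calls, 830 had no rat at or under 0.01, and 69.0% of the lower and 69.8% of the higher transcripts past the adjusted threshold had no rat at or under 0.01, as compared with 42.9% of all transcripts tested.

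Transcripts that were alone in their gene id changed more often than those with sister isoforms. Of 9851 single transcripts, 1270 (12.9%) were called, 303 higher and 967 lower. Of 3046 transcripts with 1 sister in the table, 185 (6.07%) were called, 76 higher and 109 lower, and of 1686 with 2 and more sisters, 70 (4.15%), 32 higher and 38 lower. Without rats 4 and 8 these shares were 13.7%, 6.21%, and 3.45%, and without the filter on low values they were 7.43% of 22992, 4.57% of 7960, and 2.94% of 7934. With median scaling, the higher calls outnumbered the lower ones in both classes with sisters, at 131 against 77 and at 48 against 28. Part of this order went with length. Under 700 bases, 1832 of the 1970 transcripts were alone in their gene id, and 31.6% of these and 18.1% of the 138 others were called. At 700 to under 2000 bases the shares were 13.0% of 3974 and 8.43% of 1222. At 2000 to under 5000 bases they were 4.36% of 3349 and 3.87% of 2479, and at 5000 bases and over 4.02% of 696 and 3.47% of 893. Length therefore separated the shares more than the number of isoforms did.

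Called isoforms were compared with the sum over their gene id. The sum holds the called isoform itself, so the same direction is partly built in. For the 1270 called transcripts that were alone, the sum is the transcript itself with missing values counted as 0, and it was called in the same direction in 1231 cases (96.9%). For the 255 called transcripts with sisters, this was so in 146 cases (57.3%), and the sum was called in the opposite direction in 0 cases. Of these 255, 104 had another tested transcript of the same gene id. At least 1 sister was called in the same direction for 23 of them and in the opposite direction for 4. Of all tested transcripts with 1 sister, 2.50% were called higher and 3.58% lower, and with 2 and more sisters 1.90% and 2.25%. The number with an opposite sister, 4 of 104, was near these shares. The number with a sister called in the same direction, 23 of 104, was above them.

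**Figure D4:**
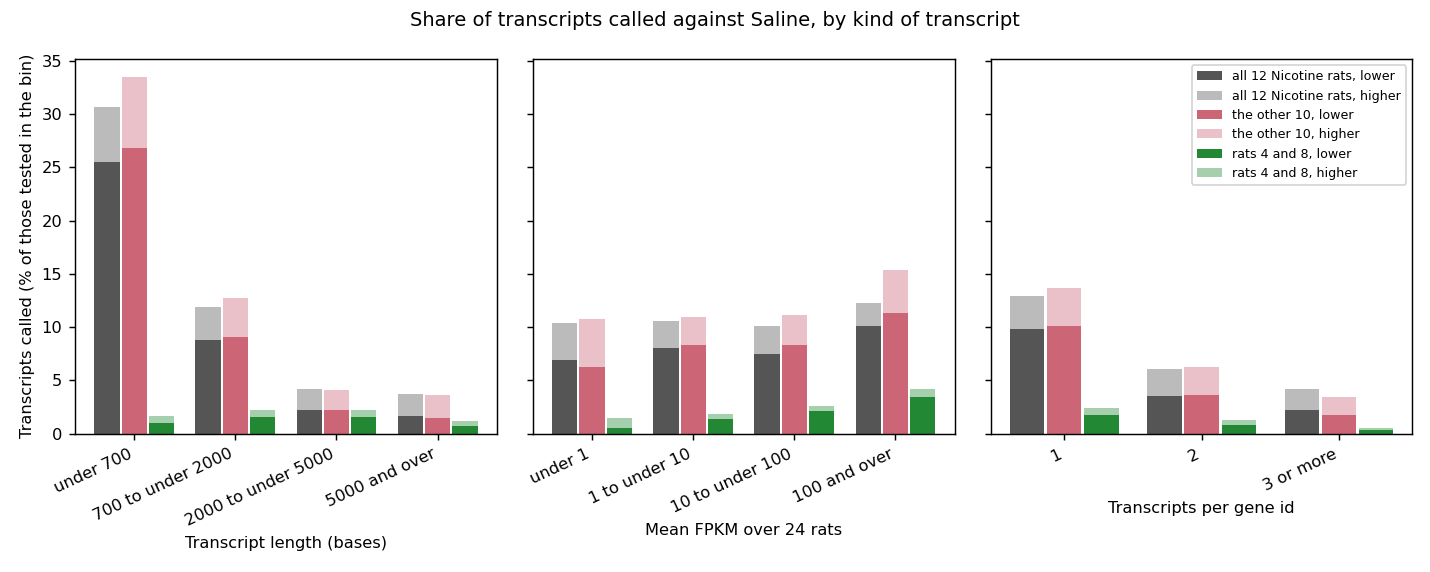
Share of tested transcripts that were called against F344_Sal (y axis, %), by transcript length, mean FPKM, and number of transcripts per gene id, with lower calls in full and higher calls in light color. With all 12 F344_Nic rats the share falls from 30.7% under 700 bases to 3.71% at 5000 bases and over, whereas for rats 4 and 8 alone it is between 0.573% and 4.21% in every class.

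In rats 4 and 8 the share of calls did not fall steadily with length, but their median difference from F344_Sal moved with length. Of the transcripts tested in these rats, 1.62% were called under 700 bases, 2.17% at 700 to under 2000 bases, 2.18% at 2000 to under 5000 bases, and 1.17% at 5000 bases and over. Without these rats, the shares were 33.5%, 12.8%, 4.12%, and 3.64%. The differences of all tested transcripts, called or not, were then compared. Under 700 bases, 21.3% of the transcripts were more than 1 log2 unit below F344_Sal in the other 10 rats and 4.01% were more than 1 unit above. At 5000 bases and over these shares were 5.66% and 6.29%. The median difference ran from -0.15 under 700 bases to 0.05 at 5000 bases and over in the other 10 rats, and from -0.10 to 0.14 in rats 4 and 8. Both of rats 4 and 8 lay below all F344_Sal rats for 2.08% of the transcripts under 700 bases and for 0.692% of those of 5000 bases and over, and above all of them for 0.305% and 2.71%. Of the transcripts under 700 bases, 14.5% lay below all F344_Sal rats in all of the other 10 rats.

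The ranges of the rats were then compared transcript by transcript. All of the other 10 F344_Nic rats lay below all 12 F344_Sal rats for 491 transcripts (3.37% of those tested) and above all of them for 37 (0.254%). For 472 of the 491, rats 4 and 8 also lay above all of the other 10, and for all 37 they lay below all of the other 10. The 491 and the 37 were chosen for an extreme place of the other 10, which favors this. Over all transcripts tested, rats 4 and 8 both lay within the range of the other 10 for 67.0%. The share in which both lay above or below that range was not counted. Of the 491, 286 (58.2%) were under 700 bases and 469 (95.5%) were alone in their gene id, as compared with 13.5% and 67.6% of all transcripts tested. None of the transcripts of 5000 bases and over was among the 491 or the 37. The mean FPKM of the 491 ranged from 0.137 to 321, with a median of 5.43. With all 12 F344_Nic rats, 21 transcripts lay below all F344_Sal rats (0.144% of those tested) and 0 lay above. In 14 of these 21, rats 4 and 8 lay above all of the other 10, as in ENSRNOT00000003411. Taken alone, rats 4 and 8 lay below all F344_Sal rats for 189 transcripts and above all of them for 171, which are 1.30% and 1.17% of the transcripts tested.

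The 491 transcripts were chosen for lying lower in the other 10 rats, so a lower share of the summed FPKM in these rats is set by the choice. They made up 5.29% to 5.83% of the summed FPKM of the tested transcripts in the F344_Sal rats. The share was 5.16% and 5.26% in rats 4 and 8, and 2.35% to 2.61% in the other 10. The level of all short transcripts was taken per library as well. The median FPKM of transcripts under 700 bases was 1.28 to 1.67 in the other 10 rats, 2.16 and 2.22 in rats 4 and 8, and 2.11 to 3.59 in F344_Sal. The mean of these medians was 1.62 ± 0.29 (SD, n = 12) in F344_Nic and 2.48 ± 0.394 (SD, n = 12) in F344_Sal. This measure was taken after short transcripts had been seen to be lower in the same libraries, so it is a description and was not tested. For transcripts of 5000 bases and over the means were 3.92 ± 0.135 and 3.76 ± 0.248 (SD, n = 12 each).

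Some features of the assembly were listed in 1 set of rats and not in the other. Of the 574751 assembled features of any class in the table, 174 were, in all of the other 10 F344_Nic rats, at or under 0.01 FPKM while being above it in rats 4 and 8 and in all 12 F344_Sal rats. The reverse held for 23 features. With all 12 F344_Nic rats against all F344_Sal rats, 0 features had either pattern, and in the 5 other tables of the series 1 feature in all had it between the drugs. Of the 174, 15 matched an Ensembl transcript. All 15 were alone in their gene id, and 9 were under 700 bases, whereas 59.1% of the 39085 exact matches were alone and 27.5% were under 700 bases. Their median FPKM in F344_Sal ranged from 0.138 to 70.7, so not all of them were near the limit of detection. None of the 15 entered the test, because 10 of the 12 F344_Nic rats were at or under the limit.

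Outside the exact matches, 2 measures of the assembled transcripts separated the same rats and others did not. Class s marks an assembled transcript with an intron that overlaps an annotated intron on the opposite strand. It was listed above 0.01 FPKM for 27 to 40 transcripts in the other 10 rats, 99 and 95 in rats 4 and 8, and 66 to 92 in F344_Sal. Over the groups this was 42.9 ± 25.5 (SD, n = 12) in F344_Nic and 80.3 ± 7.4 (SD, n = 12) in F344_Sal. In the 134 libraries of the series other than these 10, the number was 52 to 120, so the 10 lay below every other library. Class p marks a fragment next to an annotated transcript on the same strand. Its summed FPKM was 40071 to 111065 in the other 10 rats, 1041927 and 1273047 in rats 4 and 8, and at least 292625 in each of the 134 libraries. The number of class p transcripts overlapped, with 667 to 760 in the other 10 rats and 709 to 864 in F344_Sal. So did the number of intergenic transcripts, with 1301 to 1662 and 1335 to 2587. These measures were chosen after their values were seen and were not tested. The labels give no preparation or sequencing batch for these 10 libraries, and the part of such a batch was not tested.

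**Figure D5:**
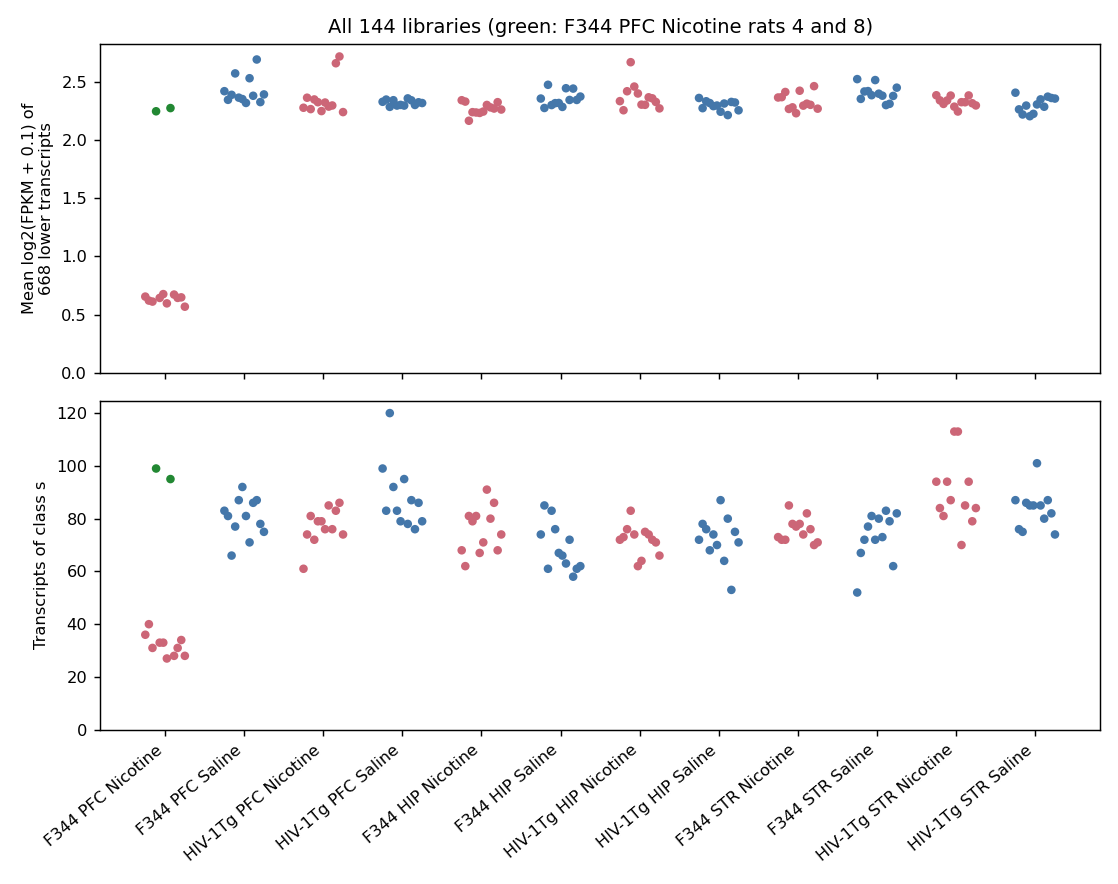
Mean log2(FPKM + 0.1) of the 668 transcripts that were lower in F344_Nic PFC (upper panel) and number of assembled transcripts of class s (lower panel) in each of the 144 libraries, grouped by strain, region, and drug along the x axis. The other 10 F344_Nic PFC libraries lie at 0.57 to 0.68 and at 27 to 40, and the other 134 libraries lie at 2.17 to 2.72 and at 52 to 120.

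Over the series, the levels of the 668 lower transcripts put the other 10 libraries apart from libraries of both strains, both drugs, and all regions. Their mean log2(FPKM + 0.1) was 0.57 to 0.68 in the other 10, 2.25 and 2.27 in rats 4 and 8, 2.32 to 2.69 in F344_Sal PFC, and 2.17 to 2.72 in the 120 libraries outside F344 PFC. The 86 higher transcripts had 1.19 to 1.34 in the other 10, -0.01 and 0.06 in rats 4 and 8, -0.18 to 0.45 in F344_Sal PFC, and -0.23 to 0.80 outside F344 PFC. The transcripts were chosen on the F344 PFC rats, so the distance from F344_Sal is set by the choice, and each region has its own set of assembled features, which the tables of both strains share. For ENSRNOT00000027484 the 120 libraries outside F344 PFC had 43.5 to 132.9 FPKM, so that the other 10 F344_Nic PFC rats, at 203.7 and above, lay over all of them.

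The difference between the nicotine and saline libraries in the F344 PFC was set beside that in the PFC of HIV-1Tg rats. The F344_Nic side of this comparison holds the 10 libraries that stood apart from the other 134, so strain and whatever sets these 10 libraries apart cannot be told apart in it. In the test of the difference itself, an interaction term of strain and drug over the 48 PFC libraries, 1541 of 13659 transcripts were called (11.3%), 433 with a higher (3.17%) and 1108 with a lower value in F344 (8.11%). After adjustment of limma's p-values, 557 remained (4.08%), 44 higher and 513 lower. Without F344_Nic rats 4 and 8 the number was 660, and with these as the only F344_Nic rats it was 0. Of the 668 lower transcripts, 498 were among the 557, and of the 84 higher ones tested, 30, but both comparisons use the same F344 libraries and this overlap is largely set by that. In the HIV-1Tg PFC alone, 955 of 14715 transcripts were called (6.49%), 467 higher (3.17%) and 488 lower (3.32%), and 0 remained after limma's p-values were adjusted, with 1014 at an unadjusted p under 0.05. Of the 668 transcripts lower in F344, 16 were called higher and 10 lower there, together 3.89% as compared with 6.78% of all those tested in F344, and their median difference was 0.06 beside 0.0078 over all. By length, 7.11% of the transcripts under 700 bases and 8.41% of those of 5000 bases and over were called there, among those also tested in F344, and 96 of the 131 short calls were higher and 108 of the 125 long calls lower. Whether these shares differ from those in F344 was not tested.

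The 4 transcripts described above were chosen for their small p in F344 PFC, so a large interaction was largely set by the choice and their values are a description. The HIV-1Tg PFC rats on nicotine had a median of 112.6 FPKM of ENSRNOT00000027484, and those on saline had 113.8. For ENSRNOT00000005579 these medians were 4.70 and 4.66, for ENSRNOT00000003411 they were 51.3 and 57.0, and for ENSRNOT00000047628 they were 12.4 and 13.1. The highest HIV-1Tg rat had 16.2 FPKM of ENSRNOT00000005579 on nicotine and 5.61 on saline. The differences on the log2 scale in HIV-1Tg were 0.01, 0.16, -0.31, and 0.02 in the same order. That of ENSRNOT00000003411 was a call in the same direction as in F344 (limma, unadjusted p = 0.01421), and the median on nicotine lay below the lowest HIV-1Tg rat on saline, 55.2 FPKM. The interaction was 0.88, 1.95, -1.11, and -5.63, with adjusted p-values from limma of 1.3e-05, 0.00071, 8.57e-06, and 1.02e-06. In the HIP of F344 rats, ENSRNOT00000027484 was called in the opposite direction, with a log2 difference of -0.29 and an SE of 0.0758 (limma, unadjusted p = 0.000342), and the differences of the other 3 were -0.23, -0.03, and 0.01. In the STR the differences of the 4 were -0.17, -0.25, 0.01, and -0.22.

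In the other regions of F344 rats fewer transcripts were called and almost none remained after adjustment. In the HIP, 841 of 15022 were called (5.6%), 361 higher (2.4%) and 480 lower (3.2%), and in the STR 585 of 14997 (3.9%), 225 higher (1.5%) and 360 lower (2.4%). After limma's p-values were adjusted, 1 transcript remained in each (0.00666% and 0.00667%), with 995 and 679 at an unadjusted p under 0.05. Of the 668 transcripts lower in the PFC, 661 were tested in the HIP, where 61 were called lower and 10 higher, together 10.7% as compared with 5.78% of all PFC-tested transcripts. In the STR, 20 of 658 were called lower and 3 higher, together 3.5% as compared with 4.07%. The median differences of the 668 were -0.08 in the HIP and -0.06 in the STR, beside -0.03 and -0.04 over all. Of the 86 higher transcripts, 83 were tested in the HIP, with 14 called higher and 6 lower, together 24.1% as compared with 5.78% of all PFC-tested transcripts. In the STR, 1 of 83 was called higher and 2 lower, together 3.61% as compared with 4.07%. The median differences of these 83 were 0.17 in the HIP and -0.08 in the STR. By the methods of the study the regions were punched from the same brains, so they share rats though no libraries, their tables were made separately, and the difference between regions was not tested. By length, 8.21% of the transcripts under 700 bases and 6.67% of those of 5000 bases and over were called in the HIP. In the STR these shares were 4.22% and 4.14%, in both regions among transcripts also tested in the PFC. In the HIP, 108 of the 145 short calls were lower and 77 of the 97 long calls higher. In the STR, 53 of the 74 short calls were lower and 37 of the 61 long calls higher. The short calls thus leaned lower and the long calls higher in both regions, as in the F344 PFC.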

How the data were processed

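RNA was extracted with Trizol, 1 TruSeq library per rat and region was sequenced, and the authors aligned the read pairs with Tophat and Bowtie (1.04 in the submitters' processing notes) to Rn4 with Ensembl annotation. They obtained the FPKM of each transcript with Cufflinks and deposited 1 table per strain and region, in which each cell packs the FPKM and its interval, the coverage, and the length. Depth per library is known only as the ratio of coverage to FPKM, and no counting error could be given.

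Of the deposited FPKM values, those of exact matches were summed where a cell held several entries (0.331% of cells), and missing values (0.792% of the cells tested) were left out. The values were tested as log2(FPKM + 0.1) with limma 3.58.1 in R 4.3.3, with the 48 PFC libraries of 4 groups in the fit and a trended prior. Changes of transcripts near 0 are understated on this scale. Transcripts listed above 0.01 FPKM in 6 or more rats of each group were tested, and all p-values were adjusted over these. All 144 sample columns were mapped to the labels, and 0 were left unused. The rats are separate animals. The fit was tested on simulated data.

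The transcripts were named by a rule: the 2 higher and the 2 lower with the smallest p that were called with and without F344_Nic rats 4 and 8 at a mean FPKM of at least 1. The comparison, the classes of transcripts, and the separation of rats 4 and 8 were chosen with earlier results of these data known. Alternatives were other pseudocounts (1 and 0.01), other filters, removal of outliers beyond 1.5 interquartile ranges with limma or with a two-way ANOVA and a Tukey-Kramer test, median scaling, the 24 libraries alone, sample weights, sums per gene id, a replicate block, a factor for rats 1 to 6 against 7 to 12, missing values as 0, and leaving out rats. The 2 rats alone against F344_Sal, the first entry of a cell, and FPKM multiplied by length were added after the data were seen. Lists of nicotinic receptor and marker genes could not be matched to identifiers.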

Additional observations from a re-analysis of the deposited data

Results flagged for a closer look

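The interaction of strain and drug in the PFC passed the adjusted threshold for 557 transcripts. The 4 transcripts described by rat were among them, but they were chosen for their small p in the same F344 libraries, and this adds no support. Strain and whatever sets 10 of the 12 F344_Nic libraries apart cannot be told apart here. The effect in F344 minus that in HIV-1Tg was 0.88 on the log2 scale for ENSRNOT00000027484, 1.95 for ENSRNOT00000005579, -1.11 for ENSRNOT00000003411, and -5.63 for ENSRNOT00000047628. With F344_Nic rats 4 and 8 as the only nicotine-treated F344 rats, 0 transcripts passed, at the precision that 2 rats allow.

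Intergenic assembled transcripts, which lie outside the exact matches that were tested, were listed above 0.01 FPKM 3233 times in F344_Nic rat 4 and 2896 times in rat 8. Both numbers were above the highest of the 12 F344_Sal rats, 2587, and above the other 10 F344_Nic rats, which had 1301 to 1662. In the 120 libraries outside F344 PFC the number reached 5321, so the 2 rats were not outside the range of the series. These 2 libraries also had ratios of coverage to FPKM of 3.54 and 3.37, as compared with 2.11 to 3.50 in F344_Sal, and the part of depth in this number was not tested.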

How the results depend on the processing

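The 1525 calls and the 754 past the adjusted threshold stayed within 1.5 times these numbers, with more lower than higher transcripts, under most alternatives. Without a filter, 2306 transcripts were called. With values close to 0 and outliers removed, limma called 2467, of which 1420 passed the adjusted threshold, and 1105 passed in the interaction. The same removal with a two-way ANOVA and a Tukey-Kramer test gave 1487 and 1050. For rats 4 and 8 alone the numbers were 240, 0, and 0. Leaving out 1 F344 rat at a time, and no HIV-1Tg rat, gave 1464 to 1523 calls, 702 to 804 past the adjusted threshold, and 531 to 624 in the interaction, where the value with all rats was 557. The interaction could not be fitted with the 24 F344 libraries alone, which hold 1 strain.

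With the replicate number as a replicate block, 1507 transcripts were called, 693 passed the adjusted threshold, and 528 passed in the interaction. The numbers do not pair the rats: deviations of rats with the same number correlated at -0.02 to 0.0482, and 3 of 12 rats correlated best with their own number.

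The share called under 700 bases was 8.11% without a filter, that at 700 to under 2000 bases 6.4%, that at a mean FPKM under 1 3.69%, and that of single transcripts 7.43%. Of the 39085 exact matches, 38886 then counted. With a pseudocount of 1 the share at a mean FPKM under 1 was 4.57%. For rats 4 and 8 alone the shares were 1.62%, 2.17%, 2.18%, and 1.17% from the shortest to the longest class, 1.43%, 1.8%, 2.61%, and 4.21% from the least to the most abundant, and 2.39%, 1.3%, and 0.573% with 1, 2, and 3 and more transcripts per gene id. ENSRNOT00000005579 was at -0.35 on the log2 scale in these 2 rats, with an SE of 0.353 (limma, unadjusted p = 0.322), so its sign there is uncertain. The cause was not tested.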
